A study of Homo sapiens with 24 samples.

Results

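The RNA levels of 8 genes of translesion synthesis, POLH, POLI, POLK, REV1, REV3L, MAD2L2, RAD18 and PRIMPOL, were followed across all groups. They were chosen by symbol for their known roles out of 33113 genes in the count table, and all 8 had counts in every sample and were among the 19452 genes tested. Translesion synthesis lets a cell copy damaged DNA. When a replicative polymerase stalls at a lesion, such as the cross-links that oxaliplatin forms between neighboring guanines, the ligase RAD18 attaches ubiquitin to the sliding clamp PCNA, and a specialised polymerase that tolerates the lesion takes over. POLH, POLI, POLK and REV1 are the inserting polymerases of the Y family, REV3L is the catalytic subunit of polymerase zeta, which extends from the inserted base, and MAD2L2 (REV7) is its accessory subunit, which also works in the shieldin complex at double-strand breaks. PRIMPOL acts differently: it restarts synthesis ahead of the lesion by making a new primer. POLH is the polymerase best known for bypassing platinum-guanine cross-links and is a known target of p53.

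RNA was sequenced from HCT116, an established human colorectal carcinoma cell line, and from HCT116 oxpl-R, a resistant line derived from it by repeated pulses of oxaliplatin. Both lines carry a doxycycline-inducible (Tet-On) adenoviral E1A gene, whose protein binds the retinoblastoma protein. Each line was studied without treatment (control), after 24 h in 25 µM oxaliplatin, after induction of E1A by 0.5 µg/mL doxycycline, and after both, with doxycycline given 3 h before the drug. All groups with E1A and no others received doxycycline, so an effect of E1A cannot be told apart from an effect of doxycycline itself. The 8 groups held 3 samples each, 24 in all, labelled as biological replicates. There is a single resistant line, so a difference between the lines holds for these 2 lines and cannot be told apart from other changes acquired during selection, including its altered chromosome number. Counts are for bulk cells, so a lower level per cell and a smaller share of cells that express a gene (for instance fewer cells in S phase) cannot be told apart.

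Library totals lay between 24838095 and 37927720 estimated counts. The epithelial markers EPCAM, CDH1, KRT8, KRT18, KRT19 and CDX2 had at least 726 counts in every sample, whereas KRT20 and CDX1 stayed at or below 49 counts. Of the markers of other cell types, COL1A1 reached 339 to 1512 counts and COL1A2 up to 489, and PTPRC, COL3A1, DCN, PECAM1, CDH5 and ALB did not exceed 74. Several libraries stood apart. Mitochondrial genes took 1.38% of the counts in HCT116 oxpl-R oxaliplatin replicate 1 and 11% to 19.7% in the others. In HCT116 oxaliplatin replicate 3 the counts leaned towards long transcripts, by 0.26 on the log2 scale per doubling of length against its group mean, and in HCT116 E1A + oxaliplatin replicate 1 towards long and GC-rich transcripts, by 0.2 per doubling and 0.34 per 10 points of GC content. In HCT116 oxpl-R oxaliplatin the slopes with GC content were 0.28 in replicate 1 and -0.31 in replicate 3, whose counts were also the least often whole (30.4% and 25.3% not whole). The trends also differed between groups. Against the mean of all 24 samples, the GC slopes were 0.26 to 0.43 per 10 points in HCT116 oxaliplatin samples and -0.22 to -0.05 in HCT116 controls. A response to the drug that follows GC content cannot be told apart there from a library effect. These trends touch the members unequally. The canonical transcript of MAD2L2 is short and GC-rich (1053 bases, 60.2% GC), whereas those of the other 7 have 36.2% to 46.2% GC and that of POLK runs to 14623 bases.

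The members lie on 7 chromosomes (GRCh38). POLH spans chr6:43576185-43620523 and REV3L chr6:111299028-111483715, while MAD2L2 lies at chr1:11658918-11691811 and PRIMPOL at chr4:184649667-184694963. RAD18 occupies chr3:8775402-8963773, REV1 chr2:99400475-99490035, POLK chr5:75511845-75609991 and POLI chr18:54269517-54321266. Their promoter windows, 250 bases before to 50 bases after each annotated start, were searched on both strands for the E2F sites TTTCCCGC, TTTCGCGC, TTTGCCGC and TTTGGCGC, the CCAAT box, the cell cycle homology region TTTGAA, the SP1 box GGGCGG and the p53 half-site. All 8 genes matched RefSeq windows, 10 in all, since MAD2L2 and REV3L have 2 starts each. The windows of the 3 members called between the lines are shown so that their content can be compared, with matched motifs in capitals, in the 5′ to 3′ direction of each gene.
POLH, chr6:43575935-43576234, + strand: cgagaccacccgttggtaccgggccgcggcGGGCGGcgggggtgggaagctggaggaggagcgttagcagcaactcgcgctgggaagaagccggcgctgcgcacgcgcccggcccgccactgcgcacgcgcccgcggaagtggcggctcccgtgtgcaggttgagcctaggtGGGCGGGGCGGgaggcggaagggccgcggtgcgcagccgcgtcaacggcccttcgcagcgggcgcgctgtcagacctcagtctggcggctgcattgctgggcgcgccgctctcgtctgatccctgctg
MAD2L2, chr1:11681099-11681398, - strand: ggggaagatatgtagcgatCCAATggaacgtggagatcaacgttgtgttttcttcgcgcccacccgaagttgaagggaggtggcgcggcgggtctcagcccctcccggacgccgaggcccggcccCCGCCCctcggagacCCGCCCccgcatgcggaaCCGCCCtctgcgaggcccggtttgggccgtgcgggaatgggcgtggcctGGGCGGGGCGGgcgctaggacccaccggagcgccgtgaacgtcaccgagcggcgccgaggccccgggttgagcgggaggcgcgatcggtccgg
PRIMPOL, chr4:184649488-184649787, + strand: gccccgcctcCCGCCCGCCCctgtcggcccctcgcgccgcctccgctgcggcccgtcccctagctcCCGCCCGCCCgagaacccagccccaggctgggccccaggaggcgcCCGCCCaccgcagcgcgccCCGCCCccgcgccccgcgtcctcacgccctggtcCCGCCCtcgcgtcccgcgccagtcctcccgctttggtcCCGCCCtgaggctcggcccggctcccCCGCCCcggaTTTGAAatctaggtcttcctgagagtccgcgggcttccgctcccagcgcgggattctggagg
The PRIMPOL window held 9 SP1 boxes and the TTTGAA element, POLH held 3 SP1 boxes alone, and this MAD2L2 window held 5 SP1 boxes and a CCAAT box. Among all 35116 RefSeq windows (GRCh38.p14), 15786 held an SP1 box, 15.2% the TTTGAA element, 34.6% a CCAAT box, 3.31% an E2F site and 6.63% a p53 half-site. POLI and 1 of the REV3L windows held an E2F site, and no window of a member held a p53 half-site. A match describes the letters only.

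Per length, as normalized counts per kb of the canonical transcript (median over 24 samples), MAD2L2 was the most abundant member at 3355. POLH followed at 136, RAD18 at 105, REV1 at 85.9 and PRIMPOL at 58.5, and POLI (34.5), REV3L (23) and POLK (11.2) were the scarcest. Normalized counts are estimated counts scaled to a common library size by the TMM method. The spread over samples also differed between members. Between the lowest and the highest sample POLK varied 9.36-fold, REV3L 8.53-fold and RAD18 7.86-fold, but REV1 2.57-fold, MAD2L2 2.84-fold and POLH 3.19-fold. For POLH, MAD2L2 and PRIMPOL the group means accounted for much of this, with ranges between groups of 2.97-fold, 2.19-fold and 3.72-fold, whereas POLK ranged 1.75-fold between groups and its samples spread widely within them.

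**Figure D1:**
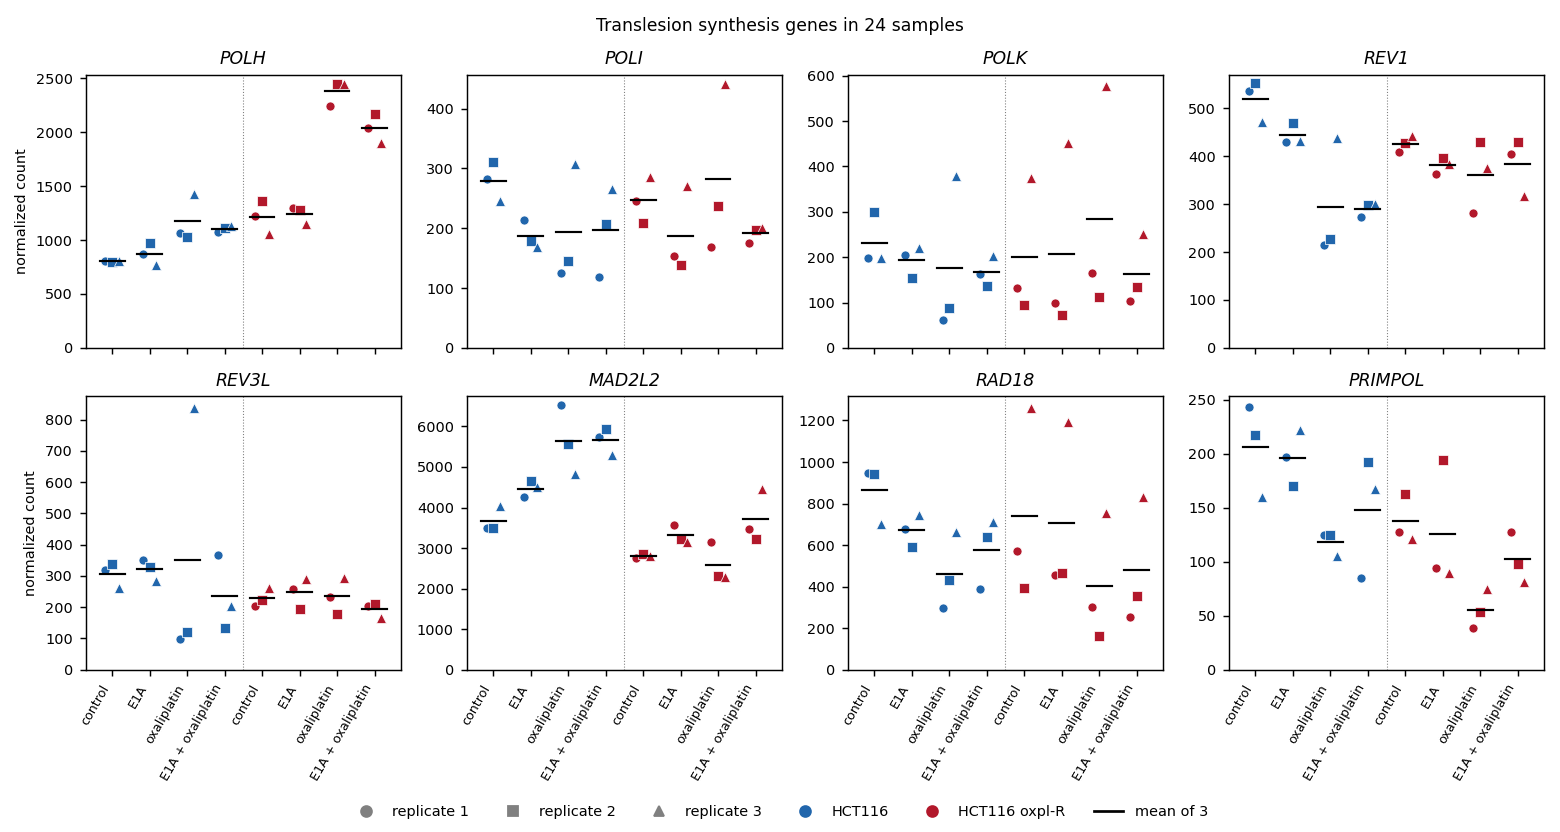
Normalized counts (y axis, linear from 0) of the 8 genes in each of 24 samples, by line and treatment (x axis), with symbols for the replicate number and a black line for the mean of 3. POLH is highest in the 2 oxaliplatin groups of HCT116 oxpl-R (1899 to 2451), PRIMPOL is lowest in HCT116 oxpl-R oxaliplatin (38.9 to 74.7), and replicate 3 of HCT116 oxpl-R holds the highest RAD18 and POLK of its group under all 4 treatments.

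POLH was the member with the most regular pattern: it was higher in HCT116 oxpl-R than in HCT116 under every treatment, and higher after oxaliplatin in both lines. In HCT116 control samples the normalized counts were 809, 797 and 801, and in HCT116 oxpl-R control samples 1222, 1358 and 1057. All 3 samples of the resistant line lay above those of the parental line. Between these groups 35% of all genes did not overlap in either direction, and 58.9% of those with a mean of at least 100 counts. After oxaliplatin POLH reached 1069, 1028 and 1429 in HCT116 and 2245, 2451 and 2445 in HCT116 oxpl-R, so the resistant line after the drug held the highest levels of the series and untreated HCT116 samples were among the lowest. The oxaliplatin group of HCT116 oxpl-R (2380 ± 117, SD, n = 3) lay above the group with E1A and oxaliplatin (2037 ± 136), and this above the other 6 groups, without overlap. Of the next 4 groups, HCT116 oxpl-R E1A (1241 ± 78.5), HCT116 oxpl-R control (1212 ± 151), HCT116 oxaliplatin (1175 ± 221) and HCT116 E1A + oxaliplatin (1107 ± 29.9), neighbors overlapped.

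Lines and treatments were compared with edgeR's quasi-likelihood test, and p-values were adjusted by Benjamini and Hochberg's method across the 19452 genes. Between the lines the log2 fold change of POLH (log2FC ± SE) was 0.60 ± 0.16 without treatment (adjusted p = 0.0121). It was 1.02 ± 0.16 with oxaliplatin (adjusted p = 1.62e-05), 0.51 ± 0.16 with E1A (adjusted p = 0.032) and 0.88 ± 0.16 with both (adjusted p = 0.000202). POLH was the only member called without treatment and with E1A (1 of 8 each), where 14.1% and 14.4% of all genes tested were called. Of genes with a mean of at least 100 counts, 23.9% and 25.3% were called there. With oxaliplatin 3 of 8 members were called, beside 25.6% of all genes and 45.8% of those with a mean of at least 100 counts. With E1A and oxaliplatin 2 of 8 were called, beside 19.3% and 34%. With the trends removed the last was 3 of 8, with PRIMPOL added (-0.93, adjusted p = 0.0094), where 23.1% of all genes were called. The untreated call was lost without HCT116 control replicate 2 (adjusted p = 0.0504) or HCT116 oxpl-R control replicate 2 (adjusted p = 0.0804). The call with E1A held in 1 of 6 fits that left out a sample, with log2FC from 0.43 to 0.60. With the trends of the counts with length and GC content removed, POLH was called in all 4 comparisons, at 0.63 to 0.75. Other expressed genes of chromosome 6 had a median log2FC of -0.27 between the untreated lines and of -0.05 with oxaliplatin.

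Oxaliplatin raised POLH by 0.97 ± 0.16 in HCT116 oxpl-R (1.96-fold, adjusted p = 0.000133) and by 0.55 ± 0.16 in HCT116 (1.47-fold, adjusted p = 0.0187). In HCT116 the call was lost without oxaliplatin replicate 3 (0.44, adjusted p = 0.0544), control replicate 1 or control replicate 2. After removal of the trends it stood at 1.05 in HCT116 (adjusted p = 4.5e-07) and at 1.1 in HCT116 oxpl-R (adjusted p = 1.4e-07). With E1A induced, oxaliplatin raised POLH by 0.71 ± 0.16 in HCT116 oxpl-R (adjusted p = 0.00925), a call lost without E1A replicate 3 (adjusted p = 0.0621) or E1A + oxaliplatin replicate 2 (adjusted p = 0.0647). In HCT116 with E1A the log2FC was 0.35 ± 0.16 (adjusted p = 0.222), and with the trends removed it was 0.90 (adjusted p = 5.82e-06). The difference between the responses of the lines was 0.42 ± 0.23 (adjusted p = 0.388), with a 95% interval from -0.03 to 0.88, and was 0.05 with the trends removed. GTPBP2, which overlaps POLH on the opposite strand over 15208 bases, had log2FC between the lines from -0.28 to -0.02 and changed by -0.46 after oxaliplatin in HCT116 (adjusted p = 0.029) and by -0.21 in HCT116 oxpl-R (adjusted p = 0.564), the opposite sign to POLH in each case.

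Oxaliplatin in HCT116 gave 3 called members of 8, beside 17.4% of all genes, and in HCT116 oxpl-R 2 of 8, beside 6.11%. Of genes with a mean of at least 100 counts, 33.4% and 11.4% were called. With E1A induced the members called were 0 of 8 in HCT116, beside 8.09% of all genes, and 1 of 8 in HCT116 oxpl-R, beside 2.8%. The shares at a mean of at least 100 counts were 15.4% and 5.17%. The 0 in HCT116 stands beside 3 members at an unadjusted p below 0.05 and 2 members called by DESeq2.

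The p53 targets listed beside POLH rose with it. The lists here were chosen with earlier results of these data known and are descriptive. In the lists, rose and fell mean called higher or lower at an adjusted p under 0.05. After oxaliplatin 12 of 12 rose in HCT116 oxpl-R, with a median log2FC of 1.51. In HCT116 9 of 12 rose, with a median of 1.31, and all 12 lay above 0. The median of all genes was 0 in both lines. Beside them, 5.74% and 16.1% of genes with a mean of at least 100 counts were called higher. With the trends removed 12 of 12 p53 targets, MDM2 among them, were called higher in each line (medians 1.48 in HCT116 oxpl-R and 1.26 in HCT116). CDKN1A, the inhibitor of cyclin-dependent kinases, rose by 2.87 ± 0.18 in HCT116 oxpl-R (adjusted p = 1.14e-11) and by 3.70 ± 0.18 in HCT116 (adjusted p = 5.97e-14). MDM2, the ubiquitin ligase of p53, rose by 2.08 ± 0.20 in HCT116 oxpl-R (adjusted p = 1.99e-08) and had a log2FC of 0.46 ± 0.20 in HCT116 (adjusted p = 0.122). Between the untreated lines 7 of 12 were higher in HCT116 oxpl-R and none was lower, where 10.4% of genes with a mean of at least 100 counts were called higher. Among the 7 were CDKN1A (1.97 ± 0.18), BAX (1.83 ± 0.18), which promotes apoptosis, DDB2 (1.15 ± 0.16), a sensor of UV lesions, and BTG2 (0.96 ± 0.15), an antiproliferative factor. Of the 11097 genes with a mean of at least 10 counts, MDM2 had the pattern most like that of POLH over the 24 samples (Pearson r of log2(CPM + 1) = 0.964), followed by NTPCR (0.952) and CLN8 (0.95). These samples share groups and libraries, so the coefficients are descriptive.

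MAD2L2 was lower in HCT116 oxpl-R than in HCT116 after oxaliplatin, both alone and with E1A. The normalized counts were 6529, 5565 and 4835 in HCT116 oxaliplatin samples and 3157, 2307 and 2297 in HCT116 oxpl-R oxaliplatin samples. The groups did not overlap, and the log2FC was -1.13 ± 0.16 (adjusted p = 4.16e-06). With E1A and oxaliplatin the samples held 5743, 5938 and 5305 in HCT116 and 3480, 3233 and 4465 in HCT116 oxpl-R, a log2FC of -0.60 ± 0.16 (adjusted p = 0.00823). That call was lost without HCT116 oxpl-R E1A + oxaliplatin replicate 2 (-0.51, adjusted p = 0.0728). Untreated, the counts were 3496, 3493 and 4036 against 2749, 2847 and 2795, also without overlap, but the log2FC of -0.39 ± 0.16 did not pass (adjusted p = 0.119). Lack of overlap was common among genes with a mean of at least 100 counts: 49.1% between the lines with oxaliplatin and 58.9% untreated. With E1A the log2FC of MAD2L2 was -0.43 ± 0.16 (adjusted p = 0.079). Other expressed genes of chromosome 1 had a median log2FC of 0.01 between the untreated lines and of 0.13 with oxaliplatin.

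MAD2L2 belongs to the third of expressed genes with the most GC (54.9% to 74.8%), whose median log2FC was -0.39 between the lines with oxaliplatin and 0.44 after oxaliplatin in HCT116, against 0.46 and -0.66 in the third with the least GC. With the trends removed, MAD2L2 was lower in HCT116 oxpl-R in all 4 comparisons: -0.68 without treatment (adjusted p = 3.34e-05), -0.95 with oxaliplatin (adjusted p = 1.14e-07), -0.63 with E1A (adjusted p = 0.000105) and -0.58 with both (adjusted p = 0.000198). The log2FC after oxaliplatin in HCT116 was 0.62 ± 0.16 with the counts as deposited (adjusted p = 0.00871), did not pass without HCT116 control replicate 2 (0.58, adjusted p = 0.0526), and was 0.02 with the trends removed (adjusted p = 1). Since the GC trend differs between these groups, the removal can take away a response to the drug as well as a library effect. In HCT116 oxpl-R the log2FC after oxaliplatin was -0.11 ± 0.16 (adjusted p = 0.853). The difference between the responses was -0.73 ± 0.23 (adjusted p = 0.0873), was called by DESeq2 (-0.82, adjusted p = 0.00334) and in the length-scaled table (-0.73, adjusted p = 0.0462), and was -0.28 with the trends removed (adjusted p = 0.42). Without HCT116 oxaliplatin replicate 3 it was -0.87 (adjusted p = 0.0248), and without HCT116 oxpl-R oxaliplatin replicate 1 -0.90 (adjusted p = 0.0185). No member was called for this difference, beside 2.78% of all genes (1 had an unadjusted p below 0.05 and DESeq2 called 1). Without HCT116 oxaliplatin replicate 3 it was called for 3, MAD2L2, REV1 (0.95, adjusted p = 0.0404) and REV3L (1.48, adjusted p = 0.0295). The share of all genes called without that replicate is not given here. FBXO6, which overlaps MAD2L2 on the opposite strand over 10155 bases, was lower in HCT116 oxpl-R with oxaliplatin (-0.63, adjusted p = 0.00298) but had log2FC of 0.08 without treatment and -0.05 with both. DRAXIN overlaps MAD2L2 over 102 bases, also on the opposite strand. It was lower in HCT116 oxpl-R in all 4 comparisons (-2.32 to -0.82, adjusted p at most 0.00756). FBXO44, with an overlap of 4410 bases on that strand, was called in none of them (-0.24 to 0.44).

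**Figure D2:**
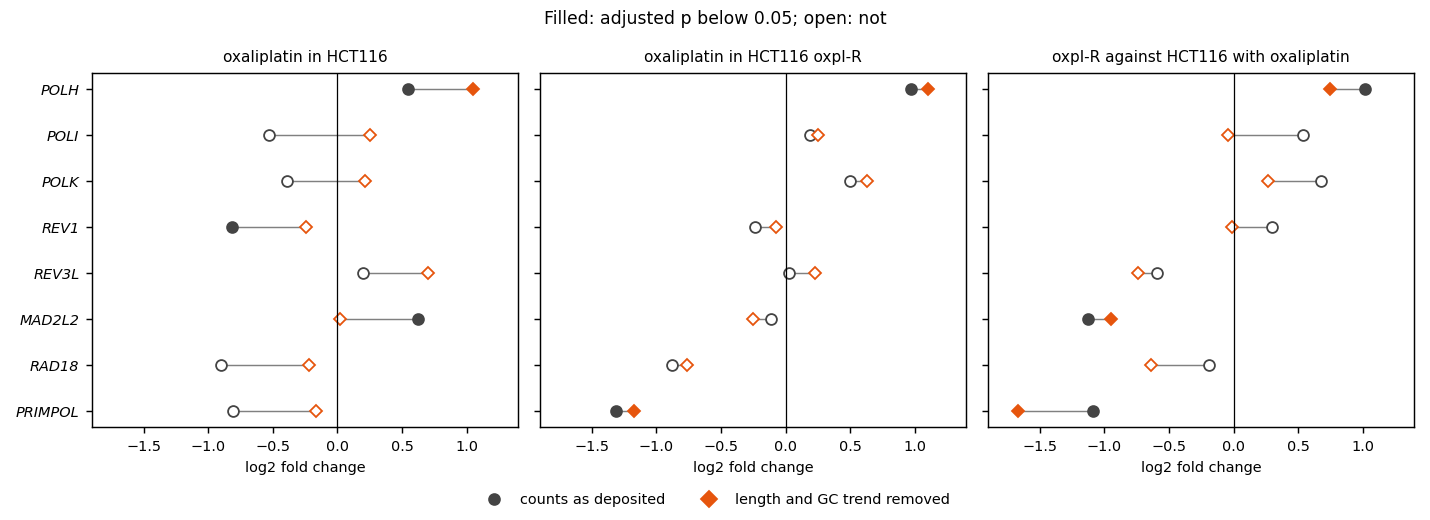
Log2 fold change (x axis) of the 8 genes in 3 comparisons, from the counts as deposited (circles) and with the trends with transcript length and GC content removed (diamonds). POLH stays filled, that is called, in all 3 panels, while MAD2L2 moves from 0.62 to 0.02 after oxaliplatin in HCT116 and from -1.13 to -0.95 between the lines with oxaliplatin.

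Of 9 partners of MAD2L2 outside polymerase zeta, 2 were lower in untreated HCT116 oxpl-R and none higher, where 14.1% of all genes and 23.9% of those with a mean of at least 100 counts were called: TP53BP1, the chromatin reader upstream of shieldin (-1.38 ± 0.27, adjusted p = 0.000675), and CHAMP1, which binds MAD2L2 (-1.22 ± 0.19, adjusted p = 2.24e-05). With oxaliplatin these and TRIP13 (-1 ± 0.15, adjusted p = 5.99e-06), the ATPase that takes MAD2L2 out of its complexes, were lower. TRIP13 fell after the drug in both lines, with log2FC of -1.69 in HCT116 oxpl-R (adjusted p = 3.81e-09) and -0.69 in HCT116 (adjusted p = 0.0014). TP53BP1 and TRIP13 were tested in the second, length-scaled table. Of the 4 partners in the count table, 3 were lower in HCT116 oxpl-R in each of the 4 comparisons with the trends removed, against 1 with oxaliplatin as reported. By pattern over the 24 samples, LAGE3 (r = 0.962), ARF5 (0.961) and KHK (0.957) were most like MAD2L2.

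PRIMPOL had its lowest level in HCT116 oxpl-R after oxaliplatin. The normalized counts there were 38.9, 53.1 and 74.7, against 128, 163 and 121 in untreated HCT116 oxpl-R and 125, 125 and 105 in HCT116 after the drug. No sample of that group reached the lowest sample of either of the others. Among genes with a mean of at least 100 counts, 29.2% and 49.1% did not overlap in these 2 comparisons. PRIMPOL fell by 1.31 on the log2 scale after oxaliplatin in HCT116 oxpl-R (SE 0.32, adjusted p = 0.0095), and was lower than in HCT116 with oxaliplatin by 1.09 (log2FC -1.09 ± 0.32, adjusted p = 0.0106). Both calls were lost without HCT116 oxpl-R oxaliplatin replicate 1, the library with few mitochondrial counts (-1.1, adjusted p = 0.0778, and -0.89, adjusted p = 0.0666), and the first also without HCT116 oxpl-R control replicate 2 (adjusted p = 0.0501). With the trends removed they were -1.17 (adjusted p = 0.00411) and -1.67 (adjusted p = 2.7e-05).

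In HCT116 PRIMPOL was at 243, 217 and 160 without treatment, and the log2FC after oxaliplatin of -0.81 ± 0.31 did not pass (adjusted p = 0.0697). It was -0.17 with the trends removed. Between the untreated lines the log2FC was -0.59 ± 0.31 (adjusted p = 0.236), where other expressed genes of chromosome 4 had a median of -0.30. With oxaliplatin PRIMPOL was at -1.09 and that median at 0.02. With E1A and oxaliplatin the HCT116 oxpl-R samples held 128, 98 and 81.4, all above the samples with oxaliplatin alone, yet the log2FC of 0.89 ± 0.32 between these groups did not pass (adjusted p = 0.254). There 15.3% of genes with a mean of at least 100 counts did not overlap. CENPU, a centromere gene whose start overlaps that of PRIMPOL on the opposite strand over 879 bases, fell by 1.70 after oxaliplatin in HCT116 oxpl-R (adjusted p = 0.0026) and was lower by 1.76 on the log2 scale between the lines with oxaliplatin (log2FC -1.76, adjusted p = 0.000429). How reads of overlapping genes were divided was not tested. CCNA2, cyclin A2 of the S and G2 phases, had the pattern most like PRIMPOL (r = 0.926), before MCMBP (0.915) and MTFR2 (0.907).

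**Figure D3:**
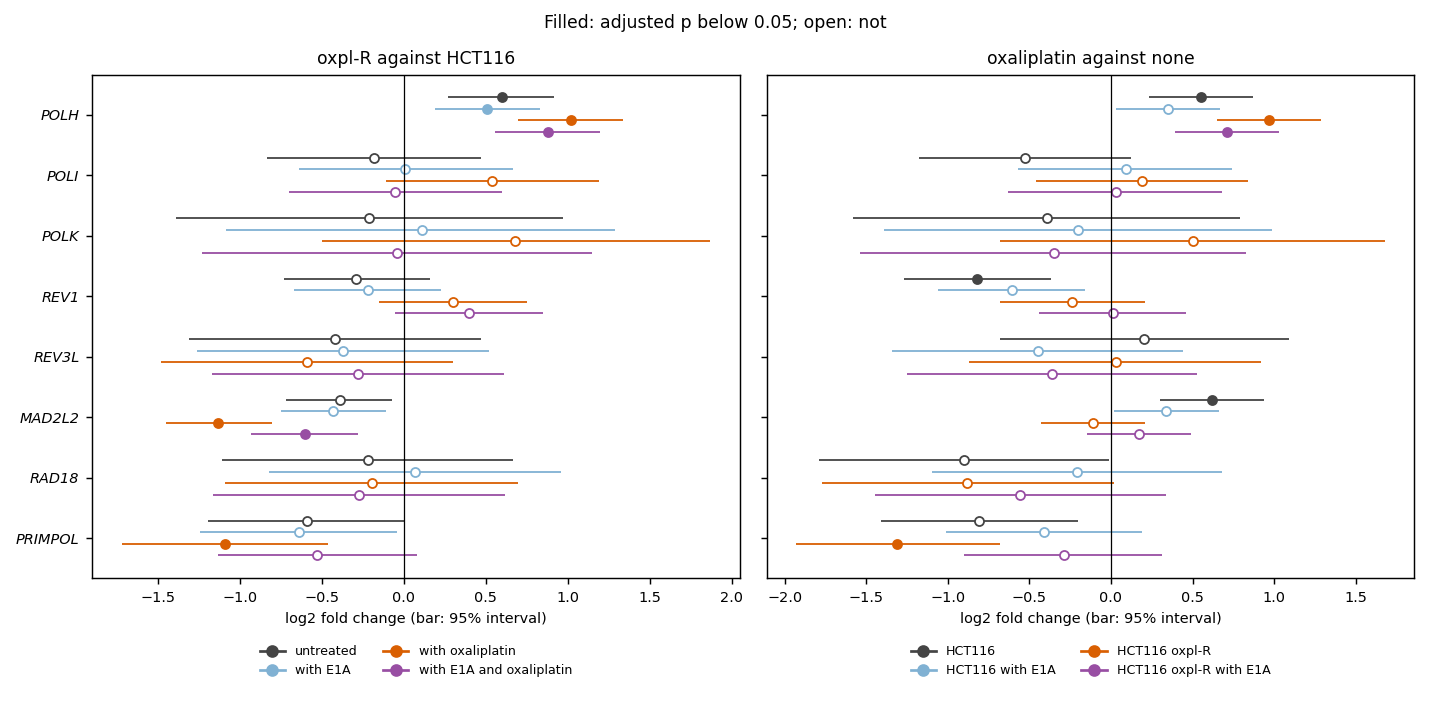
Log2 fold change (x axis, bars for the 95% interval) of the 8 genes between the lines under 4 treatments (left) and after oxaliplatin in each line without and with E1A (right), filled where called. POLH lies above 0 in all 8 comparisons (0.35 to 1.02), and the bars of POLK, REV3L and RAD18 span 0, except that of RAD18 after oxaliplatin in HCT116, which ends at -0.01. The bars come from the SE and the normal distribution and can be narrower than the quasi-likelihood test allows: for that bar its unadjusted p was 0.0583.

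RAD18, the ligase that marks PCNA, was not called after oxaliplatin in HCT116 oxpl-R in the fit of all 24 samples. It was called lower only in a fit that compared samples of both groups within their replicate number. That fit was added after seeing the data, and of 12 alternative fits it was the 1 with a call, without E1A and with it. Replicate 3 of this line stood far above the others under all 4 treatments. The normalized counts were 572, 392 and 1261 in control samples, 454, 466 and 1195 with E1A, 300, 160 and 753 with oxaliplatin and 253, 353 and 833 with both. Each sample with oxaliplatin was thus below the sample of the same number without it, while the groups overlapped. In the fit of all 24 samples the log2FC was -0.88 ± 0.46 (adjusted p = 0.361) and -0.56 ± 0.45 with E1A (adjusted p = 0.698). With 1 sample left out the first ran from -1.70 (without oxaliplatin replicate 3, adjusted p = 0.0333, the one call) to -0.25 (without control replicate 3, adjusted p = 0.949). With the replicate number as a block in a fit of both groups alone it was -0.97 (adjusted p = 0.000323) and, with E1A, -0.63 (adjusted p = 0.0259). With the same block in the fit of all 24 samples it did not pass, at -0.92 (adjusted p = 0.11) and -0.57 (adjusted p = 0.543). With the trends removed it did not pass either, at -0.76 (adjusted p = 0.327) and, with E1A, -0.31 (adjusted p = 0.8). Same-numbered samples of this line deviated together in both of these comparisons over all genes, with correlations of 0.105 to 0.385 without E1A and 0.303 to 0.418 with it. In the blocked fits the members called were 3 of 8 without E1A and 2 of 8 with it, since POLH and PRIMPOL, or POLH, were called too. The shares of all genes called in these blocked fits are not given here. In the fit of all 24 samples without a block they were 6.11% and 2.8%. Of genes with a mean of at least 100 counts they were 11.4% and 5.17%.

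In HCT116 the RAD18 counts were 947, 944 and 700 in control samples and 295, 430 and 661 with oxaliplatin. The groups did not overlap, as for 59.4% of genes with a mean of at least 100 counts. The log2FC of -0.90 ± 0.45 did not pass (adjusted p = 0.193). It was -1.08 with a replicate block (adjusted p = 0.0221), but same-numbered HCT116 samples did not deviate together here, with correlations from -0.156 to -0.078, and it was -0.22 with the trends removed (adjusted p = 0.918). Between the lines RAD18 did not pass under any treatment, with log2FC from -0.27 to 0.07. It was -0.22 between the untreated lines and -0.19 with oxaliplatin, where other expressed genes of chromosome 3 had medians of 0.41 and 0.70. FIGNL1 had the most similar pattern (r = 0.986), followed by CCDC77 (0.956) and KIF18A (0.954).

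REV1, which inserts cytosines and docks the other polymerases, was lower after oxaliplatin in HCT116 with the counts as deposited. The normalized counts were 536, 554 and 472 in control samples and 215, 228 and 439 with the drug, with replicate 3 close to the controls. The log2FC was -0.82 ± 0.23 (adjusted p = 0.0121). It was -1.18 without HCT116 oxaliplatin replicate 3 (adjusted p = 0.000245), and the call was lost without HCT116 oxaliplatin replicate 1 or 2 or control replicate 2 (adjusted p = 0.0552 to 0.191) and with the trends removed (-0.24, adjusted p = 0.47). With E1A induced, oxaliplatin samples of HCT116 held 274, 298 and 300 against 431, 469 and 432 without the drug, a log2FC of -0.61 ± 0.23 that did not pass (adjusted p = 0.103). In HCT116 oxpl-R the log2FC was -0.24 ± 0.23 after oxaliplatin and 0.01 ± 0.23 with E1A. RLIM (r = 0.935) and RPS6KB1 (0.932) were among the 3 genes most like REV1.

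REV3L, POLK and POLI were called in no comparison with all samples, and their levels in HCT116 oxaliplatin depended strongly on 1 library, replicate 3. REV3L was at 98.1, 120 and 837 in the HCT116 oxaliplatin samples and at 319, 339 and 262 in the controls, so replicate 3 lay above and the others below. The log2FC was 0.20 ± 0.45 (adjusted p = 0.921), and -1.44 without that replicate (adjusted p = 0.00154). POLK, which extends mispaired ends, was at 61.6, 88.7 and 378 in the same samples and at 199, 299 and 198 in the controls. POLI, which inserts opposite template purines, was at 126, 145 and 308, against 283, 310 and 245. Without that replicate POLI was lower after the drug (-0.99, adjusted p = 0.0348), and 4 of 8 members were called in place of 3. Between the lines with oxaliplatin 7 of 8 were called without it: beside POLH, MAD2L2 and PRIMPOL also POLI (1.00, adjusted p = 0.0293), POLK (1.87, adjusted p = 0.0322), REV1 (0.65, adjusted p = 0.0246) and REV3L (1.05, adjusted p = 0.0136). With all samples these 4 had log2FC of 0.54, 0.68, 0.30 and -0.59 and adjusted p of 0.275 to 0.502. The shares of all genes called without that replicate are not given here, so these counts cannot be set against them. With all samples the shares were 17.4% after the drug in HCT116 and 25.6% between the lines with oxaliplatin. Of genes with a mean of at least 100 counts they were 33.4% and 45.8%. That library leaned towards long transcripts, and the part of this lean in the result was not tested.

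In HCT116 oxpl-R, replicate 3 was also the highest of its group for POLK under every treatment: 375 against 132 and 94.4 in controls, 451 against 100 and 71.4 with E1A, 577 against 164 and 113 with oxaliplatin, and 250 against 103 and 135 with both. Its coefficient of variation was 47.6% to 102% in these groups, and its standard error in the fit was 0.60 to 0.61, so that its interval between the untreated lines ran from -1.39 to 0.97. Over the deviations from the group means, POLK went with RAD18 (Pearson r = 0.89) and POLI (0.80), and MAD2L2 ran against REV1 (-0.80). These are descriptions over 24 samples of shared libraries. FRS2 (r = 0.952), ARAP2 and RNF19A (0.949 each) were most like POLK, CCNT2 (0.9), HYCC1 (0.891) and PCNX4 (0.889) most like POLI, and BDP1 (0.908), BLTP1 (0.906) and AKAP11 (0.897) most like REV3L.

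**Figure D4:**
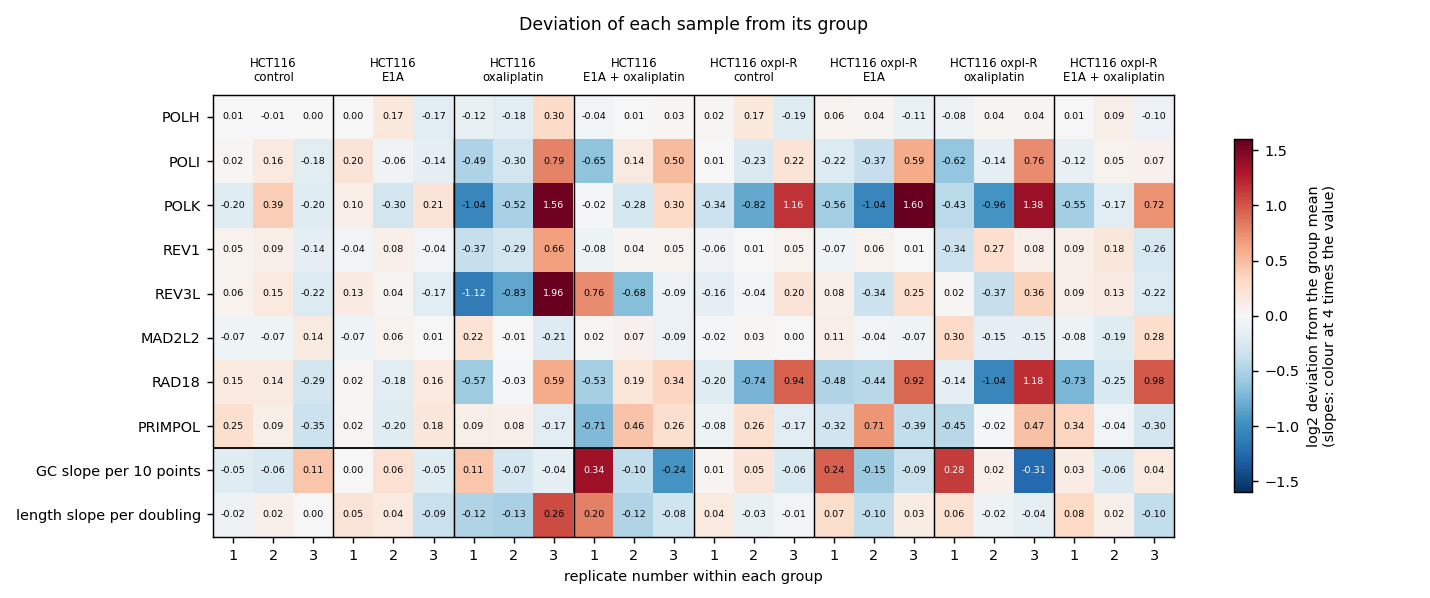
Log2 deviation of each of 24 samples from the mean of its group for the 8 genes, with the slope of the same deviations over all expressed genes per 10 points of GC content and per doubling of transcript length in the lowest rows. In HCT116 oxaliplatin replicate 3, REV3L (1.96) and POLK (1.56) deviate more than the other members; it is the library with the steepest length slope (0.26), and RAD18 deviates by 0.92 to 1.18 in every replicate 3 of HCT116 oxpl-R.

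E1A induction was called for 0 of 8 members in HCT116 without oxaliplatin (beside 0.432% of all genes) and with it (0.0874%), and for 0 of 8 in HCT116 oxpl-R without (0.226%) and with it (1.39%). Unadjusted p-values lay below 0.05 for 0, 0, 0 and 2 members, and DESeq2 called 0, 0, 0 and 1. Both of the former were in HCT116 oxpl-R with oxaliplatin, PRIMPOL as given above and MAD2L2 (0.53 ± 0.16, adjusted p = 0.134), which was at 3480, 3233 and 4465 with E1A and at 3157, 2307 and 2297 without it. MAD2L2 passed with the trends removed (0.40, adjusted p = 0.0363) and without HCT116 oxpl-R oxaliplatin replicate 1 (0.69, adjusted p = 0.029). A difference between the lines in the response to E1A was called for 0 of 8 members, beside 0.0103% of all genes, and an interaction of E1A with oxaliplatin for 0 of 8 in HCT116 (0.0103%) and 0 of 8 in HCT116 oxpl-R (0.036%). For these 3 the numbers at an unadjusted p below 0.05 were 0, 0 and 1, and DESeq2 called none.

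Of 68 genes in 5 lists around the members, 62 had a value, and UBE2A, UBE2B, UBE2N, UBE2V2, USP1 and WDR48 were not analysed here. After oxaliplatin 22 of 62 fell and 1 rose in HCT116 oxpl-R (median log2FC -0.69), and 17 fell and 4 rose in HCT116 (median -0.54), where the median of all genes was 0. Beside them, 5.69% of genes with a mean of at least 100 counts were called lower in HCT116 oxpl-R and 17.3% in HCT116. Among the 50 list genes in the count table, 20 fell in HCT116 oxpl-R and 24 did with the trends removed, but in HCT116 the number went from 14 to 4. Without HCT116 oxpl-R oxaliplatin replicate 1, 15 of the 50 fell in that line. Between the lines with oxaliplatin 28 of 62 were lower in HCT116 oxpl-R and 5 higher, beside 25.6% of all genes called in either direction. Of genes with a mean of at least 100 counts, 22.6% were called lower and 23.2% higher, 45.8% in all. Among the 50, 23 were lower and 4 higher, and with the trends removed 35 and 2.

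Around PCNA, 9 of 20 genes fell in HCT116 oxpl-R, among them DTL, which directs the degradation of clamp-bound proteins (-2.29 ± 0.25, adjusted p = 2.33e-07), and DSCC1 of an alternative clamp loader (-1.85 ± 0.30, adjusted p = 0.000119). In HCT116 6 of 20 fell. Of the 19 in the count table, 6 fell in HCT116 and 1 did with the trends removed, while in HCT116 oxpl-R the number went from 9 to 12. PCNA itself was higher in untreated HCT116 oxpl-R, at 17213 ± 3673 against 10395 ± 580 (log2FC 0.73 ± 0.21, adjusted p = 0.0145). Of 13 replicative polymerase genes 7 fell in HCT116 oxpl-R and 1 rose, and in HCT116 3 fell and 3 rose. The log2FC in HCT116 oxpl-R was -1.44 for POLD3, also a subunit of polymerase zeta (adjusted p = 0.000351), and -1.82 for POLA1, the catalytic subunit of the priming polymerase (adjusted p = 0.00124). POLD4, the smallest subunit of polymerase delta and the one that rose in HCT116 oxpl-R, rose in both lines, by 1.38 ± 0.24 in HCT116 oxpl-R (adjusted p = 0.000247) and by 1.13 ± 0.24 in HCT116 (adjusted p = 0.00166). Of 7 other specialised polymerases, POLQ of end joining fell in HCT116 oxpl-R (-1.82 ± 0.41, adjusted p = 0.00475), and between the lines with oxaliplatin POLB of base excision repair was higher in HCT116 oxpl-R (1.49 ± 0.25, adjusted p = 2.67e-05).

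Of 13 fork partners of RAD18, 4 fell after oxaliplatin in HCT116 oxpl-R and 6 in HCT116, and none rose. Beside them, 5.69% and 17.3% of genes with a mean of at least 100 counts were called lower. Of the 7 fork partners in the count table, 4 fell in HCT116 and 0 did with the trends removed, while in HCT116 oxpl-R it was 3 both ways. The log2FC in HCT116 oxpl-R was -2.09 for CLSPN, the mediator of checkpoint kinase 1 (adjusted p = 2.03e-05), and -1.97 for BRCA1 of homologous recombination (adjusted p = 0.000512). SPRTN, a protease of DNA-bound proteins, was higher in untreated HCT116 oxpl-R (1.00 ± 0.27, adjusted p = 0.0126, second table), as was RNF168, a chromatin ubiquitin ligase (0.64 ± 0.21, adjusted p = 0.043). Of 12 targets of E2F, the factor that the retinoblastoma protein holds back, 11 fell after oxaliplatin in HCT116 oxpl-R (median -1.75) and 4 in HCT116 (median -0.45). Called or not, 12 of 12 lay below 0 in HCT116 oxpl-R and 10 of 12 in HCT116. With oxaliplatin in HCT116 oxpl-R, 10 of these 12 were higher with E1A than without, among them CCNE2 (2.48 ± 0.41) and E2F1 (2.20 ± 0.17). So were 9 of the 62 pathway genes, among them DTL (1.82 ± 0.25) and DSCC1 (1.69 ± 0.30), and none of either set was lower. In this comparison 2.35% of genes with a mean of at least 100 counts were called higher. POLA1 belongs to both sets.

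**Figure D5:**
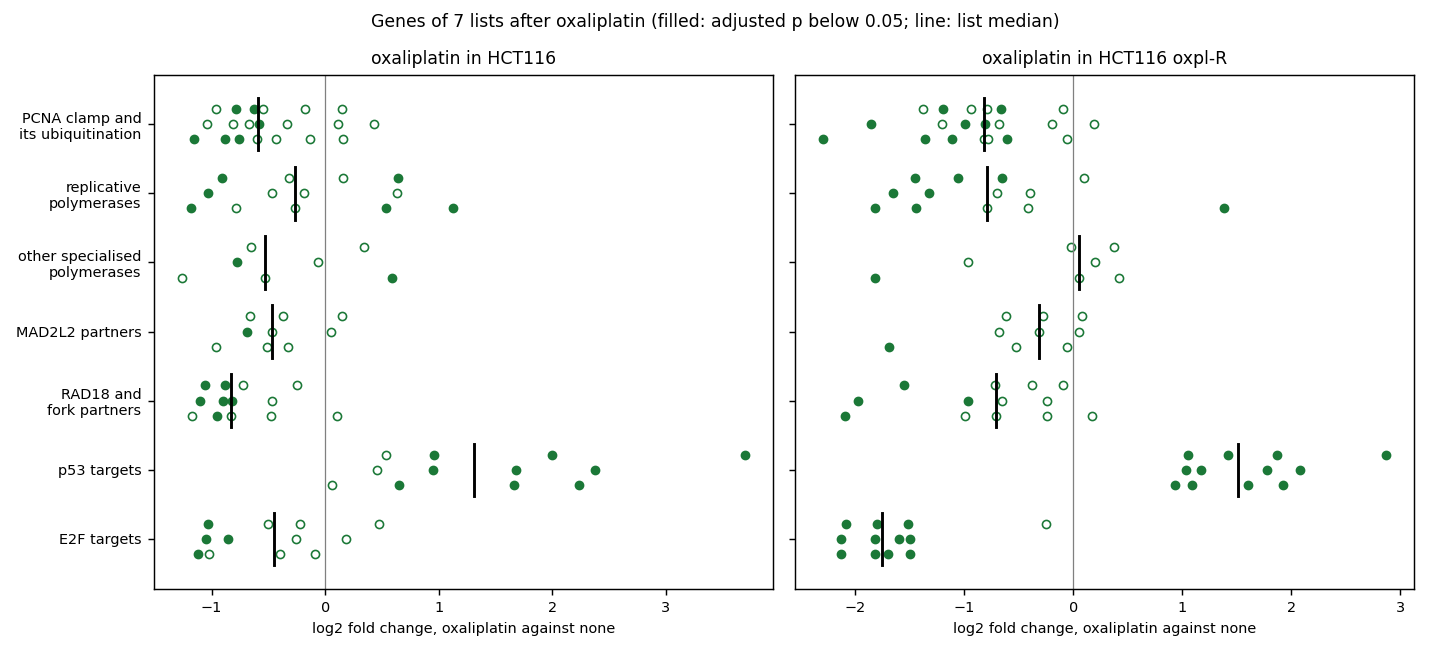
Log2 fold change after oxaliplatin (x axis) of the genes of 5 pathway lists and of the p53 and E2F targets in HCT116 (left) and HCT116 oxpl-R (right), each point a gene, filled where called, with the list median as a line. All 12 p53 targets lie right of 0 and filled in HCT116 oxpl-R (median 1.51), and 11 of 12 E2F targets lie left and filled (median -1.75).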

How the data were processed

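RNA of 24 samples (8 groups of 3 biological replicates, per the labels) was sequenced as paired-end mRNA libraries. The authors trimmed reads with Trimmomatic and estimated counts with Salmon (version 1.6.0) on GRCh38 transcripts, correcting for sequence-specific and GC biases, and brought them to gene level with tximport; the deposited estimated counts are not normalized. Strandedness of the counting was not given in the sources used here. The table held 33113 genes, in alphabetical order up to SETP6, and its last, cut row was dropped. Its values (15.9% to 30.4% not whole) were rounded. A second deposited table, named for TPM, held estimated counts scaled by length instead (column sums 28004261 to 42613322), so it was tested as counts; list genes past SETP6 were tested in it alone.

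Counts were TMM-normalized and tested with edgeR (4.0.16, R 4.3.3) in 1 quasi-likelihood fit of all 24 samples over 19452 genes with a count, with Benjamini-Hochberg adjustment, and called at an adjusted p under 0.05. DESeq2 (1.42.0) and limma (3.58.1) were alternatives. The p-values measure the spread between replicate samples of 1 line each. Trends of each library with length and GC content of the Ensembl canonical transcript (GENCODE annotation of the same build, an earlier release than the authors') were removed as an alternative added after seeing the data. This takes away the whole trend of a library, also where it differs between groups. The 24 replicate pairs within groups differed by more than sampling noise (Pearson r 0.955 to 0.989). Same-numbered samples were treated as paired only where all 3 correlations of their deviations passed 0.1, which held for oxaliplatin in HCT116 oxpl-R without E1A (0.105 to 0.385) and with it (0.303 to 0.418); the pairing comes from the data and the shared numbers. The edgeR fit was tested on simulated counts for the comparison of the untreated lines, without library trends or pairing. The other fits and comparisons were not tested in this way. The members and gene lists were chosen with earlier results of these data known. All 8 members were named in every comparison, and of each list at most 4 called genes with the largest log2FC, besides the 3 genes most like each member; a few genes these rules named are not reported here. Promoter sequences are from RefSeq (GRCh38.p14). Figures used Python 3.11.15 and matplotlib 3.10.9.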

Additional observations from a re-analysis of the deposited data

Results flagged for a closer look

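In the edgeR fit of all 24 samples, as reported, no member was called for a difference between responses. DESeq2 called MAD2L2 for oxaliplatin between the lines (-0.82, adjusted p = 0.00334), as did the length-scaled table (-0.73, adjusted p = 0.0462). Among the list genes set beside them, the response to oxaliplatin differed between the lines for several, given here as the log2FC in HCT116 oxpl-R minus that in HCT116. Around PCNA this was DTL (-1.62), among replicative polymerases POLD1 (-1.29), POLE (-1.13) and POLD2 (-0.95), the last also a subunit of polymerase zeta, and among the partners of MAD2L2 it was TRIP13 (-1). Of the p53 targets, MDM2 responded more in HCT116 oxpl-R (1.62), and DDB2 (-0.9) and the cell death gene BBC3 (-1.21) less. Of the E2F targets, E2F1 differed by -2.6, the replicative helicase genes MCM5 by -1.73, MCM2 by -1.71, MCM3 by -1.24 and MCM4 by -0.95, the phosphatase CDC25A by -1.48 and the ribonucleotide reductase subunit RRM2 by -1.01. In HCT116 oxpl-R the effect of E1A also differed with and without oxaliplatin, being higher with it for E2F1 (1.66), MCM5 (1.44), MCM4 (1.3) and CDC25A (1.2). Each had an adjusted p under 0.05 in the edgeR fit.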

How the results depend on the processing

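Counts of members called were recomputed under each alternative and with 1 sample left out. The shares of all genes called in these fits are given only for the fit with the trends removed and no block. There they were 20.3% between the untreated lines, 18.6% with E1A and 23.1% with both. They were 11.4% after oxaliplatin in HCT116, 6.99% there with E1A, and 3.71% for E1A with oxaliplatin in HCT116 oxpl-R. Between the untreated lines (1 as reported) the counts of members were 2 in the length-scaled table and with the trends removed, 3 with the trends removed and a replicate block and 3 with the groups of the comparison alone. Between the lines with E1A (1) they were 3 with the trends removed, with or without the block, and with E1A and oxaliplatin (2) likewise 3. After oxaliplatin in HCT116 (3) they were 1 with the trends removed, with or without the block, and with E1A (0) they were 2 by filterByExpr and DESeq2 and 1 with the trends removed, with or without the block. E1A in HCT116 (0) gave 1 with the groups alone. Oxaliplatin with E1A in HCT116 oxpl-R (1) gave 0 in the length-scaled table, 0 with the groups alone and 2 with both groups alone and the replicate block. E1A with oxaliplatin in HCT116 oxpl-R (0) gave 1 by filterByExpr, by DESeq2 and with the trends removed, with or without the block. The response between the lines (0) gave 1 by filterByExpr, by DESeq2 and in the length-scaled table. With a cutoff of |log2FC| above 1, the counts were 0 between the lines untreated, with E1A and with both, 0 after oxaliplatin in HCT116 and with E1A in HCT116 oxpl-R, and 1 after oxaliplatin in HCT116 oxpl-R.

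With 1 sample left out, the counts ran from 0 to 1 between the untreated lines, 2 to 7 with oxaliplatin, 0 to 1 with E1A and 1 to 2 with both. After oxaliplatin they ran from 0 to 4 in HCT116, 1 to 3 in HCT116 oxpl-R and 0 to 1 there with E1A. For E1A with oxaliplatin in HCT116 oxpl-R they ran from 0 to 1, and for the response between the lines from 0 to 3.

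Directions that reversed were all of values not called as reported. Between the lines with oxaliplatin POLI was -0.04 in the length-scaled table and with the trends removed, -0.03 with the block added, -0.06 by limma at each pseudocount and filter, and -0.01 to 1.00 with 1 sample left out. POLK ran from -0.43 to 1.87, REV1 was -0.01 with the trends removed and -0.02 with the block, and REV3L was 0.01 with the groups alone and a replicate block, 0.09 by limma and -1.09 to 1.05 with a sample left out. After oxaliplatin in HCT116 POLI was 0.25 with the trends removed and 0.24 with the block, and REV3L was -0.00 with a replicate block, -0.09 in the length-scaled table, -0.46 to -0.47 by limma and -1.44 to 0.74 with a sample left out. With E1A MAD2L2 was -0.10 with the trends removed and -0.11 with the block. RAD18 with E1A in HCT116 oxpl-R was 0.06 without E1A replicate 3 (-1.26 to 0.06 with a sample left out). For the response between the lines REV3L was 0.00 with a replicate block, 0.24 in the length-scaled table, 0.51 to 0.52 by limma and -0.71 to 1.48 with a sample left out. The cause was not tested. Outside the paired comparisons of HCT116 oxpl-R, same-numbered samples share only a number, and the replicate block in the fit of all 24 samples gave 4 members in place of 3 after oxaliplatin in HCT116 and the reported count in every other comparison. At 3 samples a group the precision differed between members: for log2FC between 2 groups the standard error was 0.16 for POLH and 0.60 to 0.61 for POLK.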
